A study of Rattus norvegicus with 10 samples.

Results

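The REV-ERB, ROR and DEC genes encode clock factors that close the feedback loops of the circadian oscillator, and the group described here holds 6 of them. Nr1d1, Nr1d2, Bhlhe40, Bhlhe41 and Ciart encode repressors, and Rora encodes the activator that competes with the REV-ERB proteins. All probe sets were taken that the platform's gene table assigns to 1 of these genes alone, which gave 8 probe sets for 5 genes among 20826 such probe sets for 14217 genes. No probe set was assigned to Ciart, so that gene was not analysed here. The signals came from the livers of 10 male rats aged 13 weeks, each on 1 array. For 30 days the 5 N-group rats ate instant noodle as 30 wt% of a diet whose fat gave 26% of the energy. The 5 C-group rats ate that diet with its seasonings left out. Feeding was paired in both groups, at a daily ration near 60 g per kg of body weight, with free water and a light cycle of 12 h on and 12 h off. The labels name no strain, and the sources used here give no time of day at which the livers were taken.

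REV-ERB alpha (Nr1d1) and REV-ERB beta (Nr1d2) are nuclear receptors that bind haem and repress transcription by recruiting the NCoR corepressor with the histone deacetylase HDAC3. ROR alpha (Rora) is a nuclear receptor that binds the same DNA element and activates from it, and Bmal1 is the best known gene under this opposed control. DEC1 (Bhlhe40) and DEC2 (Bhlhe41) are basic helix-loop-helix repressors that bind E-boxes, the sites at which the CLOCK and BMAL1 proteins activate, and Ciart is a repressor of CLOCK and BMAL1 too. In rodent liver these genes are strongly rhythmic over the day, and the REV-ERB proteins also restrain genes of lipid and glucose metabolism.

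Promoter sequences are shown because members of this group are known as targets of E-boxes or of the REV-ERB and ROR element, and because 4 of them differed in signal between the diets at an unadjusted p under 0.05 by limma. The RefSeq promoter table held all 6 genes. The 250 bases upstream of the annotated start follow, 5′ to 3′ on the gene's strand, with capitals for the E-box (CACGTG), its variant the E-prime box (CACGTT) and the core of the REV-ERB and ROR element (AGGTCA), each searched on both strands.
Nr1d1, upstream start, GRCr8 chr10:84231813-84232062, minus strand: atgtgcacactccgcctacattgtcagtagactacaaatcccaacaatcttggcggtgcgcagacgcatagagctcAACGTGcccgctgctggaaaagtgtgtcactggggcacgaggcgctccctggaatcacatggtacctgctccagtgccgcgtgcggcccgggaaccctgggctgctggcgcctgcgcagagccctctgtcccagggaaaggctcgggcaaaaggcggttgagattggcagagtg
Nr1d1, internal start, GRCr8 chr10:84229455-84229704, minus strand: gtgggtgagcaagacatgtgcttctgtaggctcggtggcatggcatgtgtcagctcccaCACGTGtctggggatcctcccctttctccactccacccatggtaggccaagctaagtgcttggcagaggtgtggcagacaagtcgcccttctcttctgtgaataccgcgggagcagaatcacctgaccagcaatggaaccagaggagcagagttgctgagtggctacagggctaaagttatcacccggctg
Nr1d2, GRCr8 chr15:9954784-9955033, plus strand: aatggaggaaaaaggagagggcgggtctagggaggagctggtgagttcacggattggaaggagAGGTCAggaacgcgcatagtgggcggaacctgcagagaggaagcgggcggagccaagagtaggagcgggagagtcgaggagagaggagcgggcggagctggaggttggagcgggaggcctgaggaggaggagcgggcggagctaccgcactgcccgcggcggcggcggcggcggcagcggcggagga
Bhlhe40, GRCr8 chr4:143174200-143174449, plus strand: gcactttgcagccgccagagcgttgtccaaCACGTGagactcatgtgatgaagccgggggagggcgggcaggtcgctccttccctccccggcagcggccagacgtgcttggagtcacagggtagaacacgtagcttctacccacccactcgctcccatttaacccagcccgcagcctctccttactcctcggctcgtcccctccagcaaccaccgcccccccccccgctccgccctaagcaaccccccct
Bmal1, GRCr8 chr1:176766078-176766327, plus strand: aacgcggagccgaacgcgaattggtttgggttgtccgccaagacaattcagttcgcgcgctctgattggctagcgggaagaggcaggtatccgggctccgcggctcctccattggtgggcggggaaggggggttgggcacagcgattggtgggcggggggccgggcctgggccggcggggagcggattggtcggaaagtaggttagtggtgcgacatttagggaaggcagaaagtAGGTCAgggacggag
The internal start of Nr1d1 had an E-box 191 bases upstream, and its upstream start had an E-prime box on the opposite strand at 174 bases. Bhlhe40 had an E-box 220 bases upstream. Bhlhe41 also had 1 E-box in this window, at 48 bases, and Ciart had 3, at 93, 35 and 21 bases. Nr1d2 had an AGGTCA core 187 bases upstream and Bmal1 had one at 15 bases, while Rora had none of these motifs and no D-box (TTANGTAA). Of 33469 RefSeq promoter windows of this length, 5.59% held CACGTG, 4.07% held CACGTT, 14.1% held AGGTCA and 2.04% held TTANGTAA. The motifs do not overlap in the windows printed.

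The arrays gave no detection calls here, so a low signal cannot be told from background. The number of arrays limits the precision. Array medians lay between 6.472 and 6.477 on the log2 scale. Of the 14217 genes, 2613 had an SD over 0.01 log2 units across the livers and are called varying genes, while the deposited values of 81.6% hardly moved. Within the diets 86.2% of probe sets had an SD under 0.001, and whether the unstated processing made them so flat was not tested. Flat values enter the variance that limma shares between genes, so its p-values depend on the genes fitted. For Nr1d1 the unadjusted p by limma was 0.0123 over all genes and 0.00592 over varying genes. Between arrays, correlations over all probe sets lay between 0.990 and 0.998. The sample codes in the labels put all N-group livers in row A and every C-group liver in row B, and the effects of row and diet cannot be told apart. The extraction text speaks of brain, and the arrays carried liver transcripts: 5 of 6 listed hepatocyte markers were measured, with a mean signal of 13.365 to 13.454 in N-group livers and 13.302 to 13.472 in C-group livers, while 5 of 6 brain markers averaged 6.340 to 6.519 in N-group livers and 6.333 to 6.430 in C-group livers. Marker means for the N-group and C-group ranges overlapped also for Kupffer cells (8.237 to 8.804 against 8.378 to 8.638; 6 of 7 markers), stellate cells (7.378 to 7.546 against 7.384 to 7.772; 5 of 5), cholangiocytes (6.389 to 6.473 against 6.308 to 6.504; 3 of 4), endothelial cells (8.526 to 8.614 against 8.530 to 8.630; 4 of 5) and lymphocytes (6.697 in every liver; 3 of 4). Many of these markers did not vary: 3 of 5 for hepatocytes, 4 of 5 for brain, 1 of 6 for Kupffer cells and 2 of 5 for stellate cells. The same held for 2 of 3 for cholangiocytes, 3 of 4 for endothelial cells and 3 of 3 for lymphocytes. Means of such flat values overlap in any case, so these overlaps do not show that the cell make-up was alike. In whole liver, fewer cells of a type and less RNA per cell cannot be told apart.

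Seasoned livers had lower signals of both REV-ERB genes and of Bhlhe40, and a higher signal of Rora. Nr1d2 differed by -1.06 log2 units, Nr1d1 by -0.96, Bhlhe40 by -0.79 and Rora by 0.36. None of these 4 differences passed the threshold of an adjusted p under 0.05 over all genes by limma, where 0 of 14217 genes passed (0%). Among the varying genes alone, where 0.153% passed, 0 of the 4 varying members did. Bhlhe41 had a near-constant signal. At an unadjusted p under 0.05 by limma, 3 of the 5 genes were lower in N-group livers, against 1.75% of all genes, and 1 was higher, against 2.95%. Most of all genes hardly moved, which lowers these shares and those set beside the gene lists below. In either direction 669 of 14217 genes had such a p in the fit over all genes. In the fit to varying genes alone 316 of 2613 did. In 2 of the 5 genes, Nr1d2 and Bhlhe40, all N-group livers lay under all C-group livers, which held for 0.331% of all genes and 1.11% of varying genes. The members were picked with earlier results of these livers known, so these counts describe them and are no independent evidence.

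**Figure D1:**
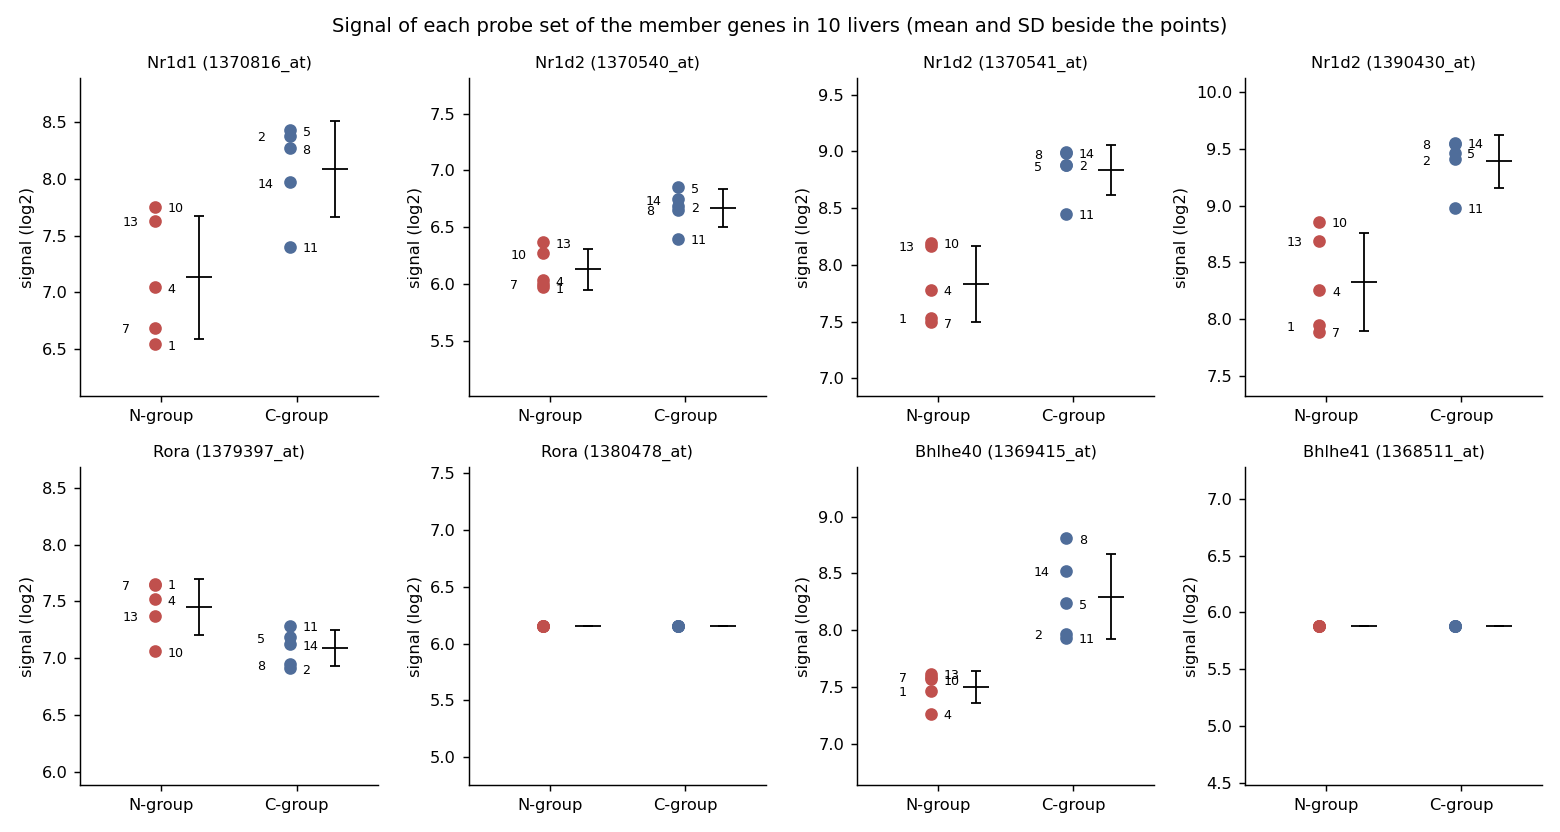
Signal (log2) of each of the 8 probe sets in the livers of the N-group (red, left) and the C-group (blue, right), with animal numbers beside the points and the mean and SD (5 livers per diet) as a bar, and every panel spans the same range. The 3 Nr1d2 probe sets and Bhlhe40 part the diets, Nr1d1 and Rora overlap, and 1 Rora probe set and Bhlhe41 lie flat.

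Nr1d1, a daily oscillating gene with a large amplitude in rodent liver, had signals of 6.54, 7.05, 6.69, 7.76 and 7.63 in N-group animals 1, 4, 7, 10 and 13, against 8.38, 8.43, 8.27, 7.40 and 7.97 in C-group animals 2, 5, 8, 11 and 14. The diets overlapped, since C-group animal 11 lay under N-group animals 10 and 13. The 3 lowest values were those of N-group animals 1, 4 and 7. The mean was 7.13 ± 0.55 in N-group livers and 8.09 ± 0.42 in C-group livers (SD, n = 5 each). The log2 difference was -0.96 ± 0.30 (SE), with a 95% confidence interval from -1.65 to -0.27, an unadjusted p of 0.0123 by limma and an adjusted p of 0.768 over all genes. The exact permutation p was 0.0317, where 0.00794 is the smallest that 252 assignments of the livers allow. The lowest N-group signals lay close to the array medians, where a signal may hold much background, so the size of the difference is uncertain.

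Nr1d2, whose product shares the DNA element and the corepressor of REV-ERB alpha, was measured by 3 probe sets. The brightest had signals of 7.95, 8.26, 7.89, 8.86 and 8.69 in N-group animals 1, 4, 7, 10 and 13, against 9.41, 9.46, 9.54, 8.98 and 9.55 in C-group animals 2, 5, 8, 11 and 14. All N-group livers lay under all C-group livers, and the nearest pair was N-group animal 10 and C-group animal 11. The log2 difference was -1.06 ± 0.22 (SE, n = 5 each), which is 0.479 times the C-group level, with a confidence interval from -1.56 to -0.57. By limma its unadjusted p was 0.00103 and its adjusted p 0.458, and it ranked 32nd of all genes by p. The exact permutation p was 0.00794, the smallest possible. Among varying genes alone the adjusted p was 0.0634.

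The other probe sets of Nr1d2 gave the same direction without overlap. Probe set 1370541_at averaged 7.83 ± 0.34 in N-group livers and 8.84 ± 0.22 in C-group livers (SD, n = 5 each), which is 0.499 times the C-group level. Probe set 1370540_at averaged 6.13 ± 0.18 in N-group livers and 6.67 ± 0.17 in C-group livers, a log2 difference of -0.54 ± 0.11 (SE). The last had its N-group signals under the array medians, and its difference was the smallest of the 3. Over the 10 livers the 3 probe sets followed each other with Pearson r from 0.966 to 0.996, as a description of repeated measures of 1 transcript.

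Rora, the activator at the element that the REV-ERB proteins repress, had signals of 7.66, 7.52, 7.65, 7.06 and 7.37 in N-group animals 1, 4, 7, 10 and 13, against 6.91, 7.18, 6.95, 7.29 and 7.12 in C-group animals 2, 5, 8, 11 and 14. N-group animal 10 lay within the C-group range, and the other N-group livers lay above it. The means were 7.45 ± 0.25 in N-group livers and 7.09 ± 0.16 in C-group livers (SD, n = 5 each). The log2 difference was 0.36 ± 0.13 (SE), with a confidence interval from 0.07 to 0.65, an unadjusted p of 0.0217 by limma and an adjusted p of 0.877. The exact permutation p was 0.0397. A second Rora probe set, 1380478_at, stood near-constant at 6.15 in every liver, with a difference of -7.55e-05, and says nothing about the diets. The Rora value therefore rests on 1 probe set.

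Bhlhe40, which encodes DEC1, had signals of 7.46, 7.26, 7.59, 7.57 and 7.61 in N-group animals 1, 4, 7, 10 and 13, against 7.97, 8.23, 8.81, 7.93 and 8.52 in C-group animals 2, 5, 8, 11 and 14. All N-group livers lay under all C-group livers. The N-group livers kept close together at 7.50 ± 0.14, while the C-group livers spread over 8.29 ± 0.37 (SD, n = 5 each). The log2 difference was -0.79 ± 0.18 (SE), which is 0.577 times the C-group level, with a confidence interval from -1.20 to -0.39. By limma its unadjusted p was 0.0017 and its adjusted p 0.526 over all genes, and 0.0791 among varying genes alone. The exact permutation p was again the smallest possible, 0.00794.

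Bhlhe41, the paralog that encodes DEC2, had a mean signal of 5.88 in N-group livers and 5.88 in C-group livers, with an SD over the 10 livers of 0.000279. This level lies under the array medians. A value this flat gives no size for a difference, and whether the transcript was present at a low level was not detectable with it. The DEC pair can therefore be described by Bhlhe40 alone.

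Within the diets, livers that were low in Nr1d1 for their diet were mostly low in Nr1d2 too. After each gene was centred on the mean of its diet, Nr1d1 and Nr1d2 had a Pearson r of 0.920 over the 10 livers, 0.899 without C-group animal 11 and 0.926 when also centred on animals 1 to 7 and animals 8 to 14. These are descriptions over values from the same arrays. Rora ran the other way, with r = -0.840 to Nr1d1 and -0.856 to Nr1d2, and -0.688 and -0.648 when also centred on the animal-number sets. Bhlhe40 was loosely related to them, with r = 0.273 to Nr1d1, 0.407 to Nr1d2 and -0.263 to Rora. Without C-group animal 11 its r to Nr1d1 was -0.011, and centred on diet and animal-number set it was 0.649, so no steady relation can be given.

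**Figure D2:**
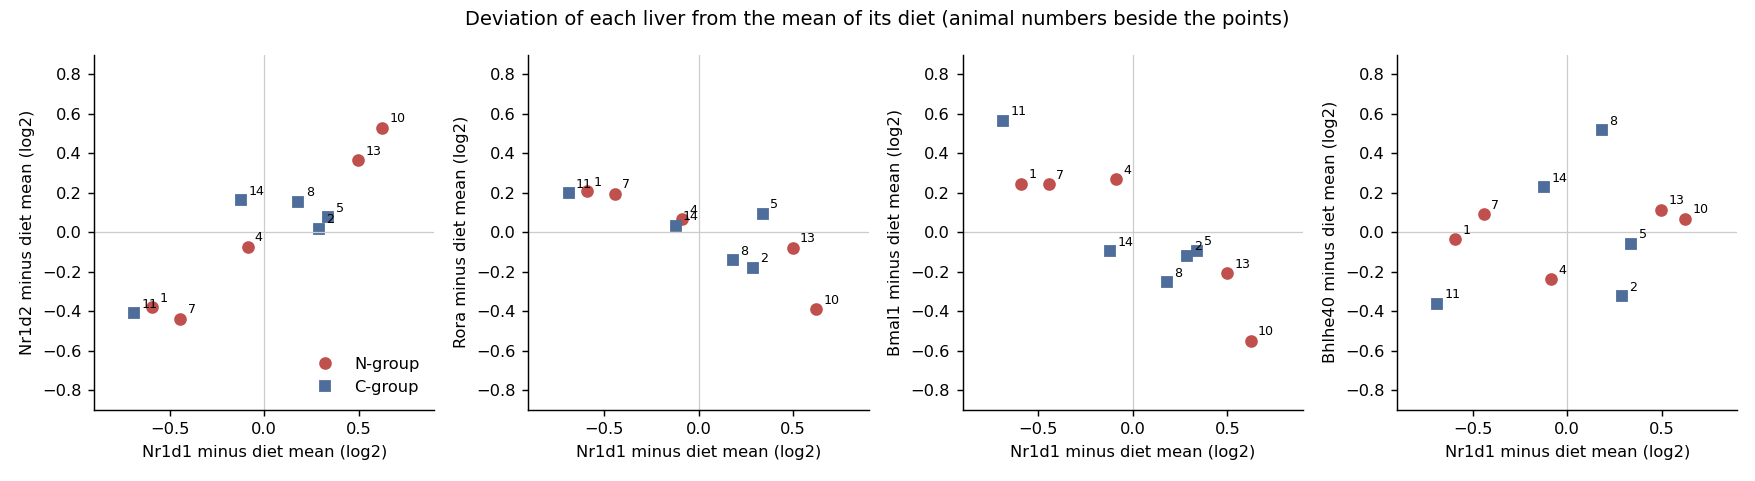
Deviation of each liver from the mean of its diet (log2) for Nr1d1 on the x axes and Nr1d2, Rora, Bmal1 and Bhlhe40 on the y axes, with N-group livers as red circles and C-group livers as blue squares (5 each, animal numbers beside the points). Nr1d2 follows Nr1d1 (r = 0.920), Rora and Bmal1 run against it (r = -0.840 and -0.898), and Bhlhe40 scatters (r = 0.273).

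The genes nearest to each member in this centred pattern were sought among the varying genes over the 10 livers. For Nr1d1 they were Baiap2l1 (r = 0.963), Il1r1, the interleukin-1 receptor (0.952), and Hsd17b2, which oxidises sex steroids (0.942). The genes nearest to Nr1d2 were Hsd17b2 (0.957) and Nr1d1 itself (0.920), whose order turned with the animal-number sets also centred (0.910 and 0.926), and Mcur1, a regulator of mitochondrial calcium uptake (0.866). For Rora they were Clock (0.902), the cyclooxygenase gene Ptgs1 (0.890) and Dnaaf9 (0.885), or 0.879, 0.893 and 0.749 with the animal-number sets also centred. Bhlhe40 had Gch1, the first enzyme of tetrahydrobiopterin synthesis (0.982), the thyroid hormone receptor gene Thrb (0.909) and the nuclear factor I gene Nfix (0.850). No gene was named for both Bhlhe40 and another member.

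The levels of Il1r1 and Hsd17b2 also differed between the diets, with no adjusted p under the threshold. Il1r1 averaged 8.64 ± 0.16 in N-group livers and 9.21 ± 0.19 in C-group livers without overlap (SD, n = 5 each), a log2 difference of -0.57 ± 0.11 (SE, adjusted p = 0.431 by limma). Hsd17b2 averaged 10.52 ± 0.72 in N-group livers and 12.31 ± 0.46 in C-group livers, a difference of -1.79 ± 0.37 (adjusted p = 0.475), and N-group animal 10 (11.59) lay just above C-group animal 11 (11.52). Among the nearest genes of Bhlhe40, Thrb differed by -0.31 ± 0.10 and Gch1 by -0.15 ± 0.07, with overlap between the diets in both. Dnaaf9 differed by 0.31 ± 0.09 (unadjusted p = 0.0108 by limma). Baiap2l1 differed by -0.18 ± 0.17, Mcur1 by -0.11 ± 0.05, Ptgs1 by 0.11 ± 0.16 and Nfix by -0.0084 ± 0.094. Their unadjusted p by limma was 0.316, 0.0702, 0.487 and 0.931, so being near in the centred pattern did not always go with a clear diet difference.

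The difference between the diets was larger in the lower than in the higher animal numbers for the REV-ERB genes and Rora, though not for Bhlhe40. Earlier results of these livers parted animals 1 to 7 (3 N-group, 2 C-group) from animals 8 to 14 (2 N-group, 3 C-group), a parting that no label names as a batch. Within each diet the array position in the sample codes rose with the animal number. The sets therefore also part lower from higher array positions within a diet, and the effects of number and position cannot be told apart there. For Nr1d1 the difference was -1.64 in the lower animal numbers and -0.19 in the higher ones. The higher numbers include C-group animal 11, at 7.40 for Nr1d1 against 8.27 and 7.97 in C-group animals 8 and 14. Nr1d2 differed by -1.41 and -0.58 in the same sets, and Rora by 0.56 and 0.10. For Bhlhe40 the values were -0.66 in the lower and -0.83 in the higher numbers.

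The parting came from these livers themselves, and 2 or 3 livers stand behind each value, so the change of the diet difference between the sets was not tested. With the sets as a block, the diet difference was -0.92 ± 0.32 for Nr1d1, -0.99 ± 0.20 for Nr1d2, 0.33 ± 0.13 for Rora and -0.75 ± 0.17 for Bhlhe40.

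**Figure D3:**
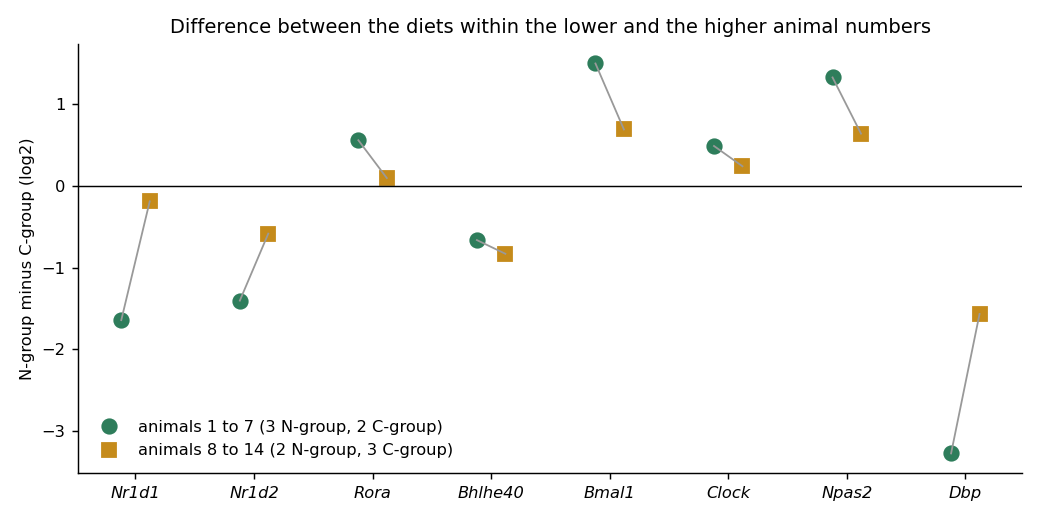
N-group minus C-group (log2) within animals 1 to 7 (green circles) and within animals 8 to 14 (yellow squares), for 4 member genes and 4 other clock genes; grey lines join the values of a gene. Nr1d1 lies at -1.64 in the lower and -0.19 in the higher animal numbers, and Bhlhe40 at -0.66 and -0.83. The higher numbers include C-group animal 11, a low liver for Nr1d1.

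C-group animal 11 lay nearest to the N-group for 4 of the members. It was the lowest C-group liver for Nr1d1 (7.40), Nr1d2 (8.98) and Bhlhe40 (7.93), and the highest for Rora (7.29). For Bhlhe40 it lay beside C-group animal 2 (7.97), so it did not stand apart there. Without this animal the log2 differences were -1.13 for Nr1d1, -1.16 for Nr1d2, 0.41 for Rora and -0.88 for Bhlhe40, and the adjusted p-values by limma were 0.503, 0.252, 0.658 and 0.268. Any part of this animal in the differences beyond these values was not tested.

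Clock genes known as REV-ERB and ROR targets had positive log2 differences in 5 of 5 measured cases. By limma 4 were higher at an unadjusted p under 0.05, against 2.95% of all genes, and 0 passed over all genes. Their median difference was 0.59, against 0.0167 over all varying genes. Bmal1 had an AGGTCA core in the window printed above, whereas the windows of Clock, Npas2 and Nfil3 held none. Bmal1, the partner of CLOCK, was at 7.47 ± 0.37 in N-group livers and 6.33 ± 0.32 in C-group livers without overlap (SD, n = 5 each), a log2 difference of 1.14 ± 0.21 (SE, adjusted p = 0.431 by limma). Its C-group level lay under the array medians, so this size is uncertain. Npas2, a CLOCK paralog, differed by 1.02 ± 0.24 and Clock by 0.37 ± 0.07. Rorb, a relative of Rora, was near-constant at 6.15.

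Within the diets Bmal1 ran against the REV-ERB genes and with Rora. Its centred r over the 10 livers was -0.898 to Nr1d1, -0.913 to Nr1d2 and 0.878 to Rora, and -0.542 to Bhlhe40. Without C-group animal 11 these were -0.849, -0.907, 0.900 and -0.328, and centred on diet and animal-number set -0.813, -0.824, 0.736 and -0.814. The value for Bhlhe40 thus moved with the centring. The animals at the ends of the pattern were C-group animal 11, low in Nr1d1 and high in Bmal1 for its diet, and N-group animal 10, the reverse.

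Other clock genes known as targets of E-boxes or D-boxes were listed beside Nr1d1 and Bhlhe40. Of 8 measured genes 1 was near-constant, and the 7 varying ones had negative differences with a median of -0.75, against 0.0167 over all varying genes. By limma 4 of the 8 were lower at an unadjusted p under 0.05, against 1.75% of all genes, and 0 passed over all genes. The 250 bases upstream of Dbp and Per3 held none of the motifs searched, while those of Per2 held an E-prime box and a D-box. Dbp, a PAR bZIP output factor, differed by -2.46 ± 0.46 (SE, n = 5 each). Per3, a Period repressor gene, differed by -1.05 ± 0.25. The N-group means of Dbp (6.39) and Per3 (6.38) lay under the array medians, so these sizes are as uncertain as that of Bmal1. Tef, another PAR bZIP factor, differed by -0.61 ± 0.16. Per2, a core repressor of CLOCK and BMAL1, differed by -0.75 ± 0.35 with overlap, by -1.53 in the lower and 0.04 in the higher animal numbers. The value in the higher numbers includes C-group animal 11, at 6.78 against 7.71 and 8.01 in C-group animals 8 and 14. Without C-group animal 11 the Per2 difference over all other livers was -1.005.

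**Figure D4:**
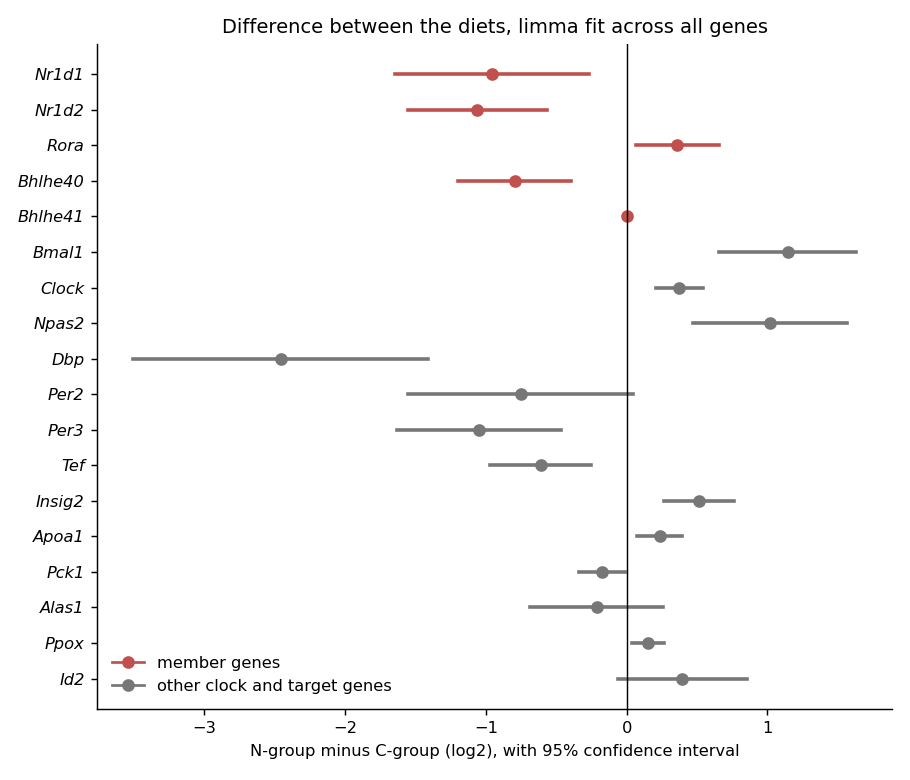
N-group minus C-group (log2, points) with 95% confidence intervals (lines) from limma's fit across all genes, for the 5 measured members (red) and other clock and target genes (grey). Nr1d1, Nr1d2 and Bhlhe40 lie left of 0 with Dbp, Per3 and Tef, Rora lies right of 0 with Bmal1, Clock and Npas2, and Bhlhe41 lies at 0.

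Metabolic genes known from mouse or rat studies as targets of REV-ERB or ROR had differences in both directions. Of 10 measured genes 4 were near-constant, and of the 6 varying ones 3 had positive and 3 negative differences, with a median of -0.07. At an unadjusted p under 0.05 by limma 2 were higher, against 2.95% of all genes, and 1 was lower, against 1.75%. Insig2, a brake on SREBP processing that REV-ERB alpha controls in mouse liver, had signals of 11.46 ± 0.22 in N-group livers and 10.94 ± 0.11 in C-group livers without overlap (SD, n = 5 each). Its log2 difference was 0.52 ± 0.11 (SE, adjusted p = 0.481 by limma), with 0.62 in the lower and 0.34 in the higher animal numbers. Apoa1, which encodes the chief protein of HDL particles, differed by 0.23 ± 0.07, and Pck1, a gluconeogenic enzyme, by -0.17 ± 0.07. Neither passed.

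The genes for the partners of REV-ERB proteins were counted in the same way. Of 6 measured corepressor genes, 0 had an unadjusted p under 0.05 by limma and 4 were near-constant, among them Ncor1 at 8.35 in both diets. As for Bhlhe41, a near-constant value gives no size for a difference, here and in the lists that follow. Only the brightest of the 3 probe sets of Ncor1 and of the 5 of Tbl1xr1 is described. The brightest also stands alone for Clock (4 probe sets) and for Tef and Mycbp2 (3 each). Per2, Per3, Rorb, Insig2, Id2 and Fbxw7 (2 each) are described by the brightest too. Whether the other probe sets of these genes gave like differences is not described here. Tbl1xr1, a subunit that varied, differed by 0.08 ± 0.10 (SE, n = 5 each), or by 0.03 without N-group animal 4 and 0.15 without N-group animal 13. Of 10 genes of haem synthesis and breakdown, which set the ligand of the REV-ERB proteins, 5 were near-constant and 1 was higher at an unadjusted p under 0.05 by limma, against 2.95% of all genes. This was Ppox, a late enzyme of haem synthesis, at 0.15 ± 0.05 (adjusted p = 0.789). Alas1, the rate-limiting enzyme, differed by -0.21 ± 0.21, with -0.09 without C-group animal 14 and -0.37 without N-group animal 13.

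Genes for kinases and ubiquitin ligases of clock proteins gave 0 of 8 measured genes at an unadjusted p under 0.05 by limma. Of these 5 were near-constant, and the 3 varying ones had a median difference of 0.10. Mycbp2, a ligase known to act on REV-ERB alpha, differed by 0.16 ± 0.11 (SE, n = 5 each), and Fbxw7, another, by 0.10 ± 0.08. Of 11 helix-loop-helix genes related to the DEC genes or known to bind E-boxes, 5 were near-constant and 0 had an unadjusted p under 0.05. The smallest p there was that of Id2, a dominant inhibitor of helix-loop-helix factors that oscillates in mouse liver, at 0.39 ± 0.20.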

How the data were processed

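The authors deposited 1 log2 signal per probe set and array, per the value table. Per the labels' protocols, cRNA carrying biotin came from 100 ng of total RNA per sample. The summary and normalization methods are not given in the sources used here, and the range of the values, 4.79 to 14.34, was read as base 2. Of 31099 probe sets, 57 controls were left out, 20826 had 1 gene in the platform table, 436 several and 9780 none. Gene identifiers gave current symbols from the GRCr8 gene table (20758 matched). The brightest probe set stood for each gene. The titles' numbers were read as animal numbers.

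N-group and C-group livers were compared with limma 3.58.1 in R 4.3.3 (a two-sided moderated test from lmFit and eBayes) over all 14217 genes, with Benjamini-Hochberg adjustment. Single genes also had an exact two-sided permutation test. The fit was tested on simulated data in which 200 varying genes were changed. It recovered 33.5% of changes of 0.5 log2 units, 81.5% of changes of 1 and 96% of changes of 2. False calls numbered 9, 6 and 10, so small changes were mostly missed. Named genes are the members, the 3 genes of smallest p in each of 8 lists, Bmal1, Clock, Npas2, Per2, Dbp and Alas1, and the 3 genes nearest to each member by centred Pearson r. Genes named outside this rule were chosen after their values were seen. The members and lists were chosen with earlier results of these data known. Alternatives covered the probe set rule, filters, normalization, variance models, covariates and leaving out each liver. A filter on within-diet SD, assumed pairs of animals and the repeats for the nearest genes were added after seeing the data.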

Additional observations from a re-analysis of the deposited data

Results flagged for a closer look

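The 8 probe sets of the members and the other named genes, without those nearest in pattern, gave 64 sets of 5 livers, 1 per diet. Left out were 20 sets with a range under 0.01 log2 units. In 5 of the other 44 the extreme liver was set off from the next by more than 0.71 of the whole range, where chance alone sets off about 1 in 20, or 2.2 of 44 independent sets. Clock genes and repeated probe sets are not independent. In 4 of the 5 the liver was C-group animal 11. It was low for the brightest Nr1d2 probe set (ratio 0.7474), at 8.98 against 9.41 to 9.55 in the other C-group livers, and for Nr1d2 probe set 1370541_at (0.7854), at 8.45 against 8.88 to 8.99. It was also high for Bmal1 (0.8058) and low for Dbp (0.8336). Nr1d1, Rora and Bhlhe40 held no such liver in either diet. The last was C-group animal 14, high for Alas1 (0.8758).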

How the results depend on the processing

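The member genes kept their direction and stayed above an adjusted p of 0.05 under each alternative in which they were tested (122 of 122 values, by limma unless the alternative was another test). Nr1d1 ranged from -1.21 to -0.81 (adjusted p from 0.138), Nr1d2 from -1.29 to -0.87 (from 0.0624), Bhlhe40 from -0.97 to -0.66 (from 0.0791) and Rora from 0.18, with both of its probe sets averaged, to 0.49 (from 0.152). Bhlhe41 stayed under 0.001 in size. Leaving out 1 liver gave -1.13 to -0.81 for Nr1d1, -1.19 to -0.95 for Nr1d2, 0.31 to 0.46 for Rora and -0.88 to -0.66 for Bhlhe40.

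Over all genes limma called 0, with 669 at an unadjusted p under 0.05. The count was 4 among varying genes alone, 4 among genes with a within-diet SD over 0.01, 1 with array weights and 2 with array position as a covariate, none of them a member. It was 0 to 5 with 1 liver left out, with 5 without C-group animal 11. The other 33 named genes, the nearest ones included, were recomputed among varying genes, with the animal-number block and with each liver left out. Of these 388 values 382 kept direction and side, and Dbp passed without C-group animal 11 (-2.85, adjusted p = 0.0443). Nfix, at -0.0084, turned to 0.010 with the block and to 0.040, 0.0046, 0.033 and 0.030 without N-group animals 4 and 13 and C-group animals 8 and 14, within a range down to -0.059 without C-group animal 11. The labels name no feeding pairs. With neighbouring animal numbers assumed as pairs, the adjusted p by limma was 0.877 for Nr1d1 and Rora and 0.805 for Nr1d2 and Bhlhe40, with 0 genes called. Low signal limits the sizes for Bmal1, Dbp and Per3, each with 1 group mean under the array medians, and the lowest livers of Nr1d1 came close to them.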
